A study of Mus musculus with 12 samples.

Results

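The SR and hnRNP splicing regulators were followed through total and polysome mRNA of mouse neural stem cells (NSCs) at 3 concentrations of folic acid. They comprise every protein-coding gene whose symbol begins with Srsf or Hnrnp, together with Tra2a and Tra2b. This rule found 33 of the 43432 genes listed, namely 11 Srsf genes, 20 Hnrnp genes and 2 Tra2 genes, and it left out 2 processed pseudogenes of the hnRNP A1 family. All 33 passed the filter on low counts in every fit.

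SR proteins carry RNA recognition motifs and a tail rich in arginine and serine, bind mainly to exonic enhancers and recruit the spliceosome to nearby splice sites. hnRNP proteins coat nascent transcripts and often silence exons, and several members of both families shuttle to the cytoplasm, where they act on export, stability and translation. Many of these genes limit their own expression by splicing their pre-mRNA into transcripts that are degraded by nonsense-mediated decay or kept in the nucleus with an intron.

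The NSCs came from the subventricular zone of male C57BL/6 mice of wild-type (WT) genotype aged 6 to 8 weeks and grew as a monolayer with EGF and bFGF. They were kept for 4 days in 1.5 µM (LF), 10 µM (MF, the reference) or 80 µM (HF) folic acid. Total mRNA came from the cells as a whole, whereas polysome mRNA came from the heavy sucrose gradient fractions of a cleared lysate after cycloheximide, and both were selected for poly(A). Each of the 6 groups had 2 libraries, 12 in all, and the labels do not say whether replicates came from separate animals or cultures, so p-values measure only the spread between these libraries.

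Library totals ran from 20506797 to 23593252 counts in total mRNA, and polysome libraries held 24193468 to 28170296. The 12 neural stem cell markers summed to between 6870 and 8650 TPM (a level corrected for transcript length and scaled to the same sum in each library) in total mRNA, with Nes at 418 and Sox2 at 107 TPM on average. The endothelial markers summed to at most 2.05 TPM and the microglial markers to at most 7.39 TPM in total mRNA. Astrocyte markers summed to 317 to 349 TPM, led by Aldoc, with 4 of 6 below 1 TPM on average. Neuronal markers summed to 159 to 176 TPM, led by Map2, with 3 of 9 below 1 TPM. Oligodendrocyte lineage markers summed to 119 to 144 TPM, led by Olig2, with 5 of 8 below 1 TPM. Ependymal markers summed to 9.4 to 12.1 TPM. Mesenchymal and mural markers summed to between 280 and 437 TPM in total mRNA and to between 489 and 957 TPM in polysome mRNA, led by Col1a2. Of the 8 of these markers tested, 5 were higher in polysome than in total mRNA over the 3 doses (median log2 change 1.542), and the median within a dose was 1.355 at LF, 0.872 at MF and 2.286 at HF. In HF vs LF, 3 were lower in total mRNA (median -0.531), 0 were called in polysome mRNA (median 0.156) and 1 was higher for TE (median 0.838). Their part in the results was not tested. In these bulk samples, fewer cells of a type and less RNA per cell cannot be told apart.

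One library stood apart. The 2 LF polysome replicates differed by more than 2-fold for 22.77% of genes, against 3.16% to 6.19% in the other groups, and in a principal component analysis of the 6 polysome libraries LF replicate 2 scored 90.2 on component 1, against -37.8 to -3.8 for the rest. Of the splicing regulators, 3 differed by more than 2-fold between the LF polysome replicates and none did in the other groups. Results at LF are therefore given with and without this library.

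Of the 219 transcripts listed for these genes, 24 are annotated by GENCODE M21 (mm10) as targets of nonsense-mediated decay and 53 as retained introns. A decay transcript is listed for 15 of the 33 genes and a retained-intron transcript for 18. The following lines show the start of the extra exon of such transcripts in 4 members, from the first base of the exon through the premature stop codon, which is in capitals, because they are the elements by which these genes produce transcripts that do not encode the full protein. Each exon is absent from the longest coding transcript of its gene, and all bases are read 5′ to 3′ on the strand of the gene.
Srsf6, exon 3 of 7, chr2:162932815-162932966, plus strand: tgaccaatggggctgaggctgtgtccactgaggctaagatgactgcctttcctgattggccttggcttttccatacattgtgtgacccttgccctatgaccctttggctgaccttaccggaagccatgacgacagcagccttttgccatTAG
Srsf3, exon 4 of 7, chr17:29039454-29039487, plus strand: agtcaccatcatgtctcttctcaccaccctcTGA
Tra2b, exon 2 of 10, chr16:22259181-22259261, minus strand: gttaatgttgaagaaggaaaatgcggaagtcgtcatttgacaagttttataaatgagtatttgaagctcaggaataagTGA
Hnrnpl, exon 6 of 13, chr7:28817335-28817393, plus strand: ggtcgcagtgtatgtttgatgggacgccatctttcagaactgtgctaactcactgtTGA

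For Srsf5, all 3 retained-intron transcripts keep the intron 5 of the longest coding transcript (chr12:80947866-80949094, 1229 nt). Its ends are shown with 20 bases of the flanking exon and 40 bases of the intron, and the splice-site dinucleotides are in capitals.
Srsf5, 5′ end of intron 5, chr12:80947846-80947905, plus strand: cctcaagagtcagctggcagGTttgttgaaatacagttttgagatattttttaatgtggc
Srsf5, 3′ end of intron 5, chr12:80949055-80949114, plus strand: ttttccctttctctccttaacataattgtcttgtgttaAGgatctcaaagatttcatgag
The deposited gene tables do not give the level of single transcripts. They do give, for each gene and library, a length averaged over its transcripts by their estimated abundance, which is used below.

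The splicing regulators were abundant in total mRNA and spanned a wide range of levels. Median TPM over the 6 total libraries exceeded 100 for 27 of the 33 and 1000 for 2, Hnrnpa1 and Hnrnpk. Hnrnpa1, which represses exons and shuttles to the cytoplasm, had the highest level, with a lowest, median and highest value of 1142, 1203 and 1226 TPM. Hnrnpk, a poly(C)-binding KH domain protein, followed at 1094, 1136 and 1163 TPM, and Hnrnpa2b1, known for sorting mRNAs in neural cells, at 982.5, 995.1 and 1044 TPM. The most abundant SR gene was Srsf3, the smallest SR protein and an adaptor for mRNA export, at 386, 413.4 and 423.3 TPM. Srsf12 had the lowest level of all members, at 2.27, 2.74 and 2.95 TPM. When the 33 genes were ordered by TPM in total mRNA, the ranges of neighbours overlapped in 19 of 32 adjacent pairs, so the order is only resolved in part. Their summed share of a total library's counts ran from 1.073% to 1.122%.

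No splicing regulator passed the test for a difference between doses of folic acid in total mRNA. Genes were tested by quasi-likelihood in edgeR with p adjusted by the Benjamini-Hochberg method, and called where the adjusted p was below 0.05 and the fold exceeded 1.2. Of the 33, 0 were called in LF vs MF (0.00719% of 13912 genes called), 0 in HF vs MF (0.0863%, with 0.0288% higher and 0.0575% lower) and 0 in HF vs LF (1.79%, with 0.805% higher and 0.985% lower). At an unadjusted p under 0.05 there was 1 member in each comparison, namely Tra2b in LF vs MF (log2 change 0.11 ± 0.05 SE), Srsf1 in HF vs MF (0.12 ± 0.05) and Srsf6 in HF vs LF (0.12 ± 0.05). Next in order of p were Hnrnpa1 and Hnrnpr in LF vs MF (0.08 ± 0.04 for both), Hnrnpab and Srsf2 in HF vs MF (0.09 ± 0.04 and 0.10 ± 0.05), and Srsf3 and Hnrnpu in HF vs LF (0.08 ± 0.04 and 0.13 ± 0.07). When total LF replicate 1 was left out, 1 member was called in LF vs MF and 1 in HF vs LF. The biological coefficient of variation was 0.0433, so the total libraries were close replicates.

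Polysome and total mRNA differed for most of these genes. Averaged over the 3 doses, 12 of the 33 members were higher and 12 lower in polysome than in total mRNA (edgeR, 14421 genes tested, 71% called, 32.7% higher and 38.4% lower). These counts are read against those shares of all genes, and the members did not stand out in number. The median log2 change was 0.105 for the members and -0.0865 for all genes tested. Of the 11 Srsf genes, 3 were higher and 7 lower (median -0.359), and of the 20 Hnrnp genes, 8 were higher and 5 lower (median 0.216). Of the Tra2 genes, Tra2b was higher and Tra2a was not called. The plot of the changes in polysome over total mRNA shows every member with its SE.

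**Figure D1:**
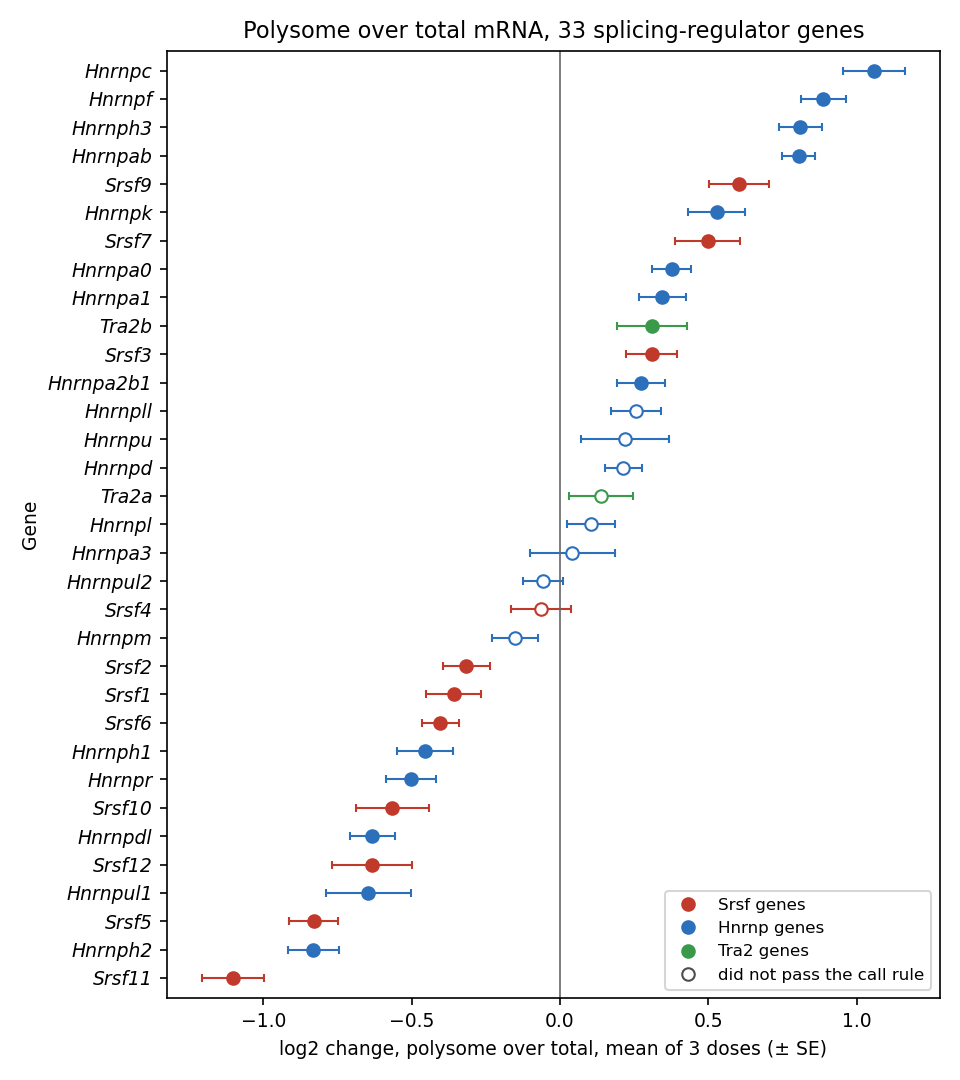
Log2 change of polysome over total mRNA, averaged over the 3 doses, for each of the 33 genes (points, edgeR estimate from 12 libraries; bars, ± SE). Filled points passed the call rule, 12 to the right of 0 and 12 to the left; Hnrnpc is the highest and Srsf11 the lowest.

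Among the members lower in polysomes, Srsf11 (ENSMUSG00000055436), a nuclear SR protein, fell furthest. Its CPM (counts scaled to a common library size with TMM factors, not corrected for length) was between 138.5 and 181.2 in the total libraries. In polysomes it was 76.26 and 101.3 at LF, 61.49 and 72.82 at MF, and 71.24 and 62.32 at HF. All 6 polysome values lay below all 6 total values, and the log2 change was -1.10 ± 0.10 (SE, adjusted p = 3.893e-06).

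Srsf5 (ENSMUSG00000021134), an SR protein known as SRp40, had a CPM between 230.4 and 308.3 in total mRNA. In polysomes its CPM was 162.2 and 175.3 at LF, 135.5 and 144.3 at MF, and 152.4 and 163.8 at HF. No value overlapped between the fractions, and the log2 change was -0.83 ± 0.08 (adjusted p = 5.713e-06). Hnrnph2, a G-tract binding protein encoded on the X chromosome, had a CPM between 188.6 and 200.5 in total mRNA. Its polysome CPM was 102.0 and 126.0 at LF, 91.93 and 94.29 at MF, and 102.6 and 133.6 at HF. The 6 polysome values again lay below all total values, and the log2 change was -0.83 ± 0.09 (adjusted p = 8.151e-06).

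Hnrnpul1, a relative of Hnrnpu with a role in the DNA damage response, was the least even of these genes. Its CPM was between 202.3 and 208.9 in total mRNA. In polysomes it was 189.0 and 92.74 at LF, 143.3 and 130.3 at MF, and 117.4 and 114.0 at HF. The 2 LF replicates thus lay at opposite ends of the polysome values, and the log2 change was -0.65 ± 0.14 (adjusted p = 0.001981). Srsf12 had a CPM between 2.226 and 3.025 in total mRNA and between 1.525 and 2.203 in polysomes, without overlap but at low counts (-0.63 ± 0.13, adjusted p = 0.001476). Hnrnpdl, a paralogue of the AU-rich element binding protein Hnrnpd, had a CPM between 210.7 and 248.0 in total mRNA and, in polysomes, 166.1 and 201.7 at LF, 133.1 and 136.1 at MF, and 133.3 and 145.6 at HF (-0.63 ± 0.08, adjusted p = 2.742e-05). Its LF polysome libraries were the nearest to total mRNA.

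The other 6 members that were lower in polysomes changed by less. They were Srsf10 (-0.57 ± 0.12), which acts as a repressor when dephosphorylated, Hnrnpr (-0.50 ± 0.08), which binds mRNAs in axons, and Hnrnph1 (-0.46 ± 0.09), a G-tract binding protein. The remainder were Srsf6 (-0.40 ± 0.06), Srsf1 (-0.36 ± 0.09), the first SR protein described, and Srsf2 (-0.32 ± 0.08), an SR protein that stays mostly in the nucleus. The adjusted p of these 6 was between 0.000162 and 0.005175. For Srsf2 and Srsf6 the fall was seen at MF and HF only, since their LF log2 ratios were above 0 (0.616 and 0.27, and 0.019 and 0.044). Without LF polysome replicate 2, the mean change of Srsf2 kept its direction but no longer passed the fold threshold (-0.26 ± 0.05). With the trend of the change on gene length removed, the value of Srsf1 was 0.023. Other falls shrank, to -0.12 for Srsf6, -0.21 for Srsf10, -0.25 for Hnrnpr and -0.16 for Hnrnpul1. Those of Srsf2 (-0.41), Srsf5 (-0.97) and Srsf12 (-0.64) did not shrink.

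Among the members higher in polysomes, Hnrnpc (ENSMUSG00000060373), which forms tetramers on U-tracts of nascent RNA, rose furthest. Its CPM was between 293.4 and 317.4 in total mRNA. In polysomes it was 613.6 and 938.3 at LF, 546.7 and 493.2 at MF, and 566.8 and 675.9 at HF. Every polysome value lay above every total value, and the log2 change was 1.06 ± 0.10 (adjusted p = 5.512e-06).

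Hnrnpf and Hnrnph3, both of the G-tract binding H/F group, were also higher in polysomes. Hnrnpf had a CPM between 673.6 and 713.2 in total mRNA and, in polysomes, 1176 and 1460 at LF, 1206 and 1071 at MF, and 1302 and 1510 at HF (0.89 ± 0.08, adjusted p = 1.955e-06). Hnrnph3 had a CPM between 45.36 and 49.77 in total mRNA and, in polysomes, 80.08 and 90.88 at LF, 78.31 and 79.20 at MF, and 85.05 and 91.63 at HF (0.81 ± 0.07, adjusted p = 2.446e-06). The polysome values of both genes were above all total values at each dose.

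Hnrnpab (ENSMUSG00000020358), which binds AU-rich and single-stranded nucleic acid, had a CPM between 481.1 and 526.4 in total mRNA and, in polysomes, 1097 and 1052 at LF, 859.4 and 798.8 at MF, and 784.7 and 781.1 at HF. The fractions did not overlap, with the LF polysome libraries highest, and the log2 change was 0.80 ± 0.06 (adjusted p = 5.029e-07). Srsf9, a small SR protein, had a CPM between 53.48 and 59.65 in total mRNA and, in polysomes, 91.80 and 67.12 at LF, 93.51 and 103.3 at MF, and 91.32 and 70.40 at HF (0.60 ± 0.10, adjusted p = 0.0003188). Its replicates were less even than those of Hnrnpab, but the fractions did not overlap. Hnrnpk had a CPM between 923.4 and 984.2 in total mRNA and, in polysomes, 1215 and 1743 at LF, 1258 and 1154 at MF, and 1365 and 1684 at HF (0.53 ± 0.10, adjusted p = 0.000494).

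The other 6 members that were higher in polysomes were Srsf7 (0.50 ± 0.11), which with Srsf3 links splicing to mRNA export, Hnrnpa0 (0.38 ± 0.07), Hnrnpa1 (0.35 ± 0.08), Tra2b (0.31 ± 0.12), Srsf3 (0.31 ± 0.09) and Hnrnpa2b1 (0.27 ± 0.08). Tra2b and its paralogue Tra2a bind purine-rich exonic enhancers, and the call of Tra2b was lost in 10 of the 12 fits that left out 1 library. The adjusted p of these 6 was between 0.0003982 and 0.03485. These changes are in counts not corrected for length, and median TPM did not always rise. Polysome TPM was below total TPM for Hnrnpa2b1 (859.9 and 995.1), Srsf3 (372.7 and 413.4) and Tra2b (178.9 and 190.8). It was also below for Hnrnpa1 (1176 and 1203) and Hnrnpa0 (64.74 and 71.84), and above for Srsf7 (139.7 and 129.4). For Hnrnpa0 and Srsf3 the rise lay mostly at LF. Log2 ratios of single polysome libraries to total mRNA were 0.945 and 0.947 at LF for Hnrnpa0, against -0.067 to 0.238 at MF and HF. For Srsf3 they were 0.619 and 1.102 at LF, against -0.106 to 0.127 at MF and HF. Without LF polysome replicate 2, Tra2b (0.17 ± 0.05), Srsf3 (0.23 ± 0.05) and Hnrnpa2b1 (0.20 ± 0.06) no longer passed the fold threshold. The count of members higher in polysomes was then 9 (34.3% of genes), and the count lower was 11 (39.5%).

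The 9 members that were not called were Hnrnpll (0.26 ± 0.08), Hnrnpu (0.22 ± 0.15), Hnrnpd (0.21 ± 0.06), Tra2a (0.14 ± 0.11), Hnrnpl (0.11 ± 0.08), Hnrnpa3 (0.04 ± 0.14), Hnrnpul2 (-0.06 ± 0.07), Srsf4 (-0.06 ± 0.10) and Hnrnpm (-0.15 ± 0.08). Hnrnpl and Hnrnpll bind CA-rich RNA, Hnrnpm binds GU-rich RNA, and Srsf4 is a large SR protein. Hnrnpll and Hnrnpd had an adjusted p of 0.0185 and 0.01028 but a fold change of 1.195 and 1.159, under the threshold. In TPM, which is corrected for length, Hnrnpl was at 249.8 to 353.1 in polysomes, below its 453.2 to 503.3 in total mRNA. Taken per gene, the CPM ranges of the 6 polysome and the 6 total libraries did not overlap for 8 members higher in polysomes (22.8% of genes) and 8 members lower (29.4%). These shares of the 33 are close to those of all genes tested.

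Paralogues were called in opposite directions in the H/F and D groups, and not in the A, U and L groups. In the H/F group, Hnrnph1 and Hnrnph2 were lower in polysomes whereas Hnrnph3 and Hnrnpf were higher. In the D group, Hnrnpdl was lower, Hnrnpab was higher, and Hnrnpd, the AU-rich element binding protein AUF1, was not called. In the A group, Hnrnpa0, Hnrnpa1 and Hnrnpa2b1 were higher and Hnrnpa3 was not called. In the U group, Hnrnpul1 was lower and Hnrnpu and Hnrnpul2 were not called, and in the L group neither Hnrnpl nor Hnrnpll was called. Differences between paralogues were not tested, and reads that fit more than one gene were divided between them by the authors' software, so values of near-identical copies such as Hnrnpa1 and its pseudogenes are uncertain.

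The same comparison within each dose gave counts that differed between LF and the other doses. In LF, 14 members were higher in polysomes (25% of genes) and 5 were lower (28.5%), against 53.6% of genes called either way. In MF, 5 were higher (26%) and 10 were lower (29.3%, and 55.2% either way), and in HF, 7 were higher (25.7%) and 11 were lower (30.7%, and 56.4% either way). With only the libraries of LF in the fit, 7 were higher and 1 was lower, and with only those of MF, 9 were higher. Differences between these counts were not tested. The largest rises in LF were those of Hnrnpc (1.35 ± 0.18), Hnrnpab (1.07 ± 0.10), Hnrnpa0 (0.94 ± 0.11), Hnrnpf (0.94 ± 0.13), Srsf3 (0.88 ± 0.15), Hnrnph3 (0.82 ± 0.12), Srsf7 (0.73 ± 0.19) and Hnrnpd (0.69 ± 0.11). The 5 members lower in LF were Srsf11 (-0.85 ± 0.18), Hnrnph2 (-0.78 ± 0.15), Srsf5 (-0.67 ± 0.14), Srsf12 (-0.62 ± 0.23) and Hnrnph1 (-0.42 ± 0.16). Without LF polysome replicate 2, 14 members were higher (30.9%) and 8 lower (31.8%) in LF.

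In MF the members higher in polysomes were Srsf9 (0.82 ± 0.18), Hnrnpc (0.81 ± 0.18), Hnrnpab (0.76 ± 0.10), Hnrnph3 (0.75 ± 0.12) and Hnrnpf (0.73 ± 0.13). The 8 largest falls in MF were those of Srsf11 (-1.24 ± 0.18), Hnrnph2 (-1.03 ± 0.15), Srsf5 (-1.01 ± 0.14), Srsf10 (-0.90 ± 0.21), Hnrnpdl (-0.82 ± 0.13), Hnrnpr (-0.70 ± 0.14), Srsf6 (-0.61 ± 0.11) and Srsf1 (-0.60 ± 0.16). In HF the members higher were Hnrnpc (1.02 ± 0.18), Hnrnpf (0.99 ± 0.13), Hnrnph3 (0.85 ± 0.12), Hnrnpk (0.64 ± 0.16), Hnrnpab (0.58 ± 0.10), Srsf9 (0.52 ± 0.18) and Hnrnpa1 (0.39 ± 0.14). The 8 largest falls in HF were those of Srsf11 (-1.22 ± 0.18), Srsf2 (-0.93 ± 0.14), Hnrnpul1 (-0.83 ± 0.25), Srsf12 (-0.81 ± 0.23), Srsf5 (-0.81 ± 0.14), Hnrnpdl (-0.76 ± 0.13), Srsf10 (-0.73 ± 0.21) and Hnrnph2 (-0.69 ± 0.15). Srsf2 was called in opposite directions, higher in LF (0.45 ± 0.14) and lower in MF (-0.47 ± 0.14) and HF. Hnrnpc, Hnrnpf, Hnrnph3, Hnrnpab and Srsf9 were called higher, and Srsf11, Srsf5 and Hnrnph2 lower, at each of the 3 doses.

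The ratios were also taken library by library. For each polysome library, log2 CPM minus the mean of total mRNA at the same dose had a median over the 33 members of 0.074 and 0.407 in LF replicates 1 and 2, 0.016 and -0.106 in MF, and -0.151 and 0.014 in HF. The corresponding medians over all genes were -0.013 and -0.218, -0.039 and -0.055, and -0.106 and -0.122. The 33 genes took 1.266% and 1.58% of the counts in the LF polysome libraries and at most 1.2% in the other 4. For 15 of the 33 members both LF ratios lay above all 4 MF and HF ratios, a pattern seen in 14.8% of genes, and for 1 member, Srsf4, both lay below (14.4% of genes). These 15 were Srsf1, Srsf2, Srsf3, Srsf5, Srsf6, Srsf10, Srsf11, Tra2a, Hnrnpa0, Hnrnpa2b1, Hnrnpa3, Hnrnpab, Hnrnpd, Hnrnpdl and Hnrnpll. For another 7 members only replicate 2 lay above the 4 others.

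**Figure D2:**
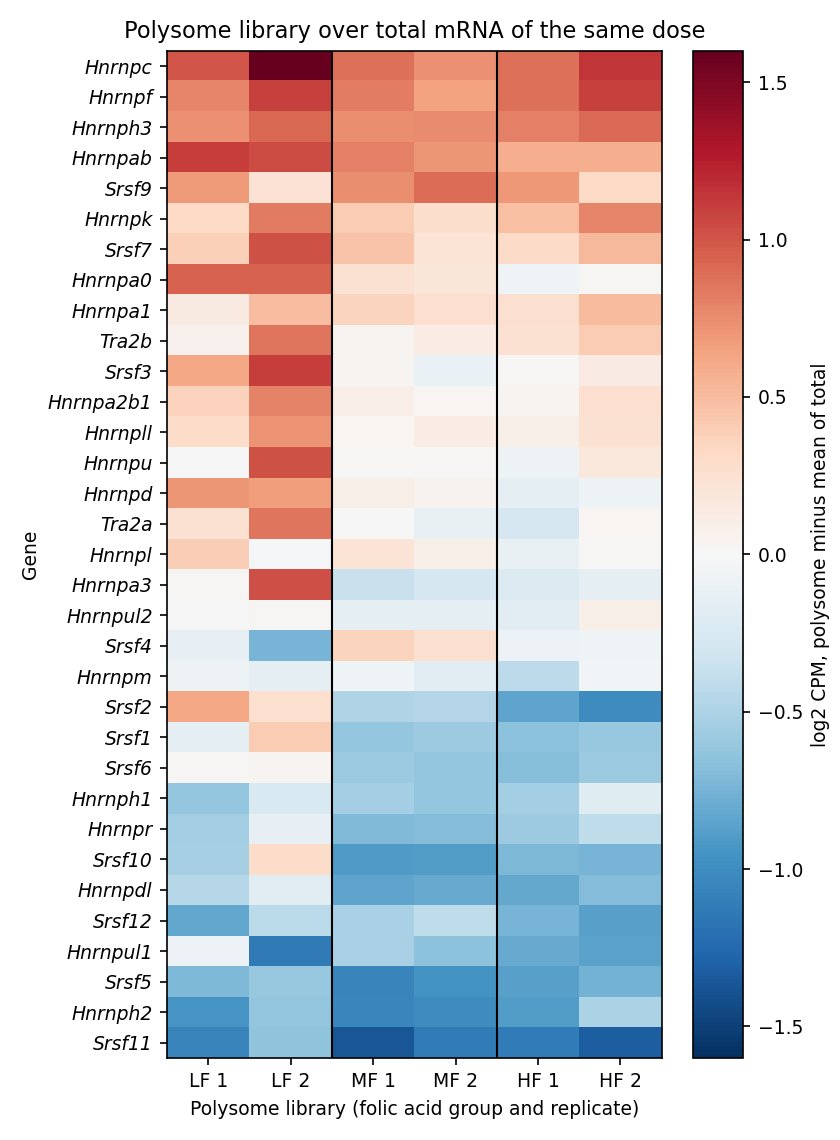
Log2 ratio of each polysome library to total mRNA of the same dose (columns, folic acid group and replicate) for the 33 genes (rows, ordered by the mean change); red is higher and blue is lower in polysomes. The LF 2 column is the reddest, with the highest ratio of the 6 libraries for 19 genes, and Srsf2 turns from red at LF to blue at MF and HF.

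Dose was then tested in polysome mRNA and in TE (translation efficiency, polysome over total mRNA), to ask whether folic acid moved these genes on ribosomes. In polysome mRNA, 0 of 33 members were called in LF vs MF (0.0223% of 13433 genes), HF vs MF (0%) or HF vs LF (0.0149%). At an unadjusted p under 0.05 there were 14 members in LF vs MF (2324 of 13433 genes), 0 in HF vs MF (453) and 9 in HF vs LF (1882). DESeq2 called 3 members in LF vs MF and 3 in HF vs LF, for which the share of all genes was not taken. For TE, 0 members were called in LF vs MF (0.236% of 14421 genes, with 0.0347% higher and 0.201% lower) and HF vs MF (0%). In HF vs LF 1 member, Srsf2, was called lower (0.0208% of genes called lower, 0.0763% higher and 0.0971% either way). At an unadjusted p under 0.05 there were 13 members for TE in LF vs MF (2277 of 14421 genes), 1 in HF vs MF (599) and 11 in HF vs LF (2114).

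Srsf2 (ENSMUSG00000034120, chr11:116849901-116853094, minus strand) had the smallest p of all members in the dose comparisons of polysome mRNA and TE. Its CPM in total mRNA was 166.3 and 151.3 at LF, 148.3 and 154.7 at MF, and 160.8 and 165.0 at HF. In polysomes it was 243.0 and 191.3 at LF, 108.8 and 109.6 at MF, and 90.66 and 80.80 at HF. The polysome values were ordered by dose with no overlap between groups, whereas total mRNA overlapped. The log2 change of TE was -1.38 ± 0.19 in HF vs LF (adjusted p = 0.04659), 0.92 ± 0.19 in LF vs MF (adjusted p = 0.09068) and -0.45 ± 0.19 in HF vs MF (adjusted p = 0.9817). The mesenchymal and mural markers had a median of 0.838 for TE in HF vs LF, and their part in the change of Srsf2 was not tested. In polysome mRNA the change of Srsf2 was -1.33 ± 0.20 in HF vs LF (adjusted p = 0.1484) and 0.98 ± 0.20 in LF vs MF (adjusted p = 0.1284). The TE call in HF vs LF was lost when any 1 of 10 of the 12 libraries was left out and held without either of the LF polysome libraries, and the log2 change lay between -1.54 and -1.19 over these 12 fits.

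Hnrnpa0 (ENSMUSG00000007836), a single-exon gene whose protein binds AU-rich elements, had the next smallest p. Its CPM in polysomes was 197.5 and 197.8 at LF, 115.5 and 111.6 at MF, and 99.86 and 105.6 at HF, against 94.53 to 108.9 in total mRNA. The LF polysome libraries were far above total mRNA, the MF libraries slightly above it and the HF libraries within its range, and the log2 change of TE in HF vs LF was -0.97 ± 0.16 (adjusted p = 0.05553). Hnrnpd had a polysome CPM of 267.6 and 259.5 at LF, 172.0 and 167.5 at MF, and 149.9 and 157.1 at HF (TE in HF vs LF -0.81 ± 0.15, adjusted p = 0.07277). Srsf6, an SR protein known as SRp55, had a polysome CPM of 240.2 and 244.5 at LF, 162.7 and 160.0 at MF, and 161.3 and 171.5 at HF, and Srsf3 had 659.0 and 921.1, 450.0 and 404.9, and 459.7 and 496.1. In these 4 genes both LF polysome replicates were above every MF and HF polysome library. None passed the call rule with all libraries.

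In other genes the LF polysome replicates lay far apart. Hnrnpa3 had a polysome CPM of 546.1 and 1106 at LF, against 422.4 to 522.3 at MF and HF, so that both LF values were above the rest but replicate 1 only slightly. Hnrnpu, which scaffolds chromatin-associated RNA, had 359.0 and 728.0 at LF, against 373.6 to 443.2 at MF and HF. Replicate 2 of Hnrnpu lay above, and replicate 1 below, every other polysome library. The plot of CPM by folic acid group sets Hnrnpa3 and Hnrnpu beside genes whose LF replicates were closer together.

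**Figure D3:**
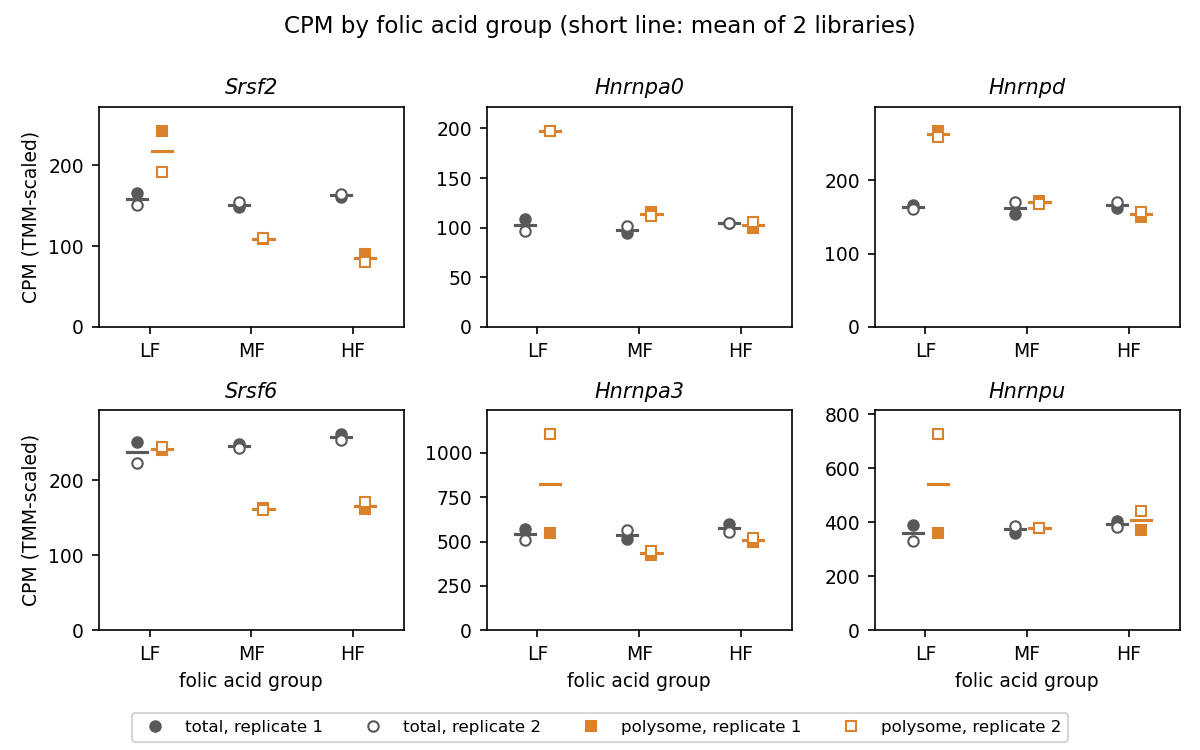
CPM (TMM-scaled) of 6 genes in total (circles) and polysome (squares) mRNA at LF, MF and HF; filled symbols are replicate 1, open symbols replicate 2 and short lines their mean. In Srsf2, Hnrnpa0, Hnrnpd and Srsf6 both LF polysome values are well above those of MF and HF, whereas in Hnrnpa3 and Hnrnpu LF replicate 2 is far above replicate 1, which is slightly above the MF and HF values in Hnrnpa3 and below them in Hnrnpu.

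Leaving out LF polysome replicate 2 left 1 LF polysome library, which was then assumed to vary like the other groups. In that fit more genes were called in every dose comparison of polysome mRNA and TE. In polysome mRNA, 5 members were higher in LF vs MF (2.65% of genes called higher, 4.18% lower and 6.83% either way), namely Srsf2 (1.15 ± 0.14), Hnrnpa0 (0.80 ± 0.14), Hnrnpd (0.65 ± 0.14), Srsf3 (0.62 ± 0.15) and Srsf6 (0.57 ± 0.14). In HF vs LF, 6 members were lower (7.4%, with 7.96% higher and 15.4% either way), namely Srsf2 (-1.50 ± 0.14), Hnrnpa0 (-0.94 ± 0.14), Hnrnpd (-0.80 ± 0.14), Hnrnpul1 (-0.70 ± 0.14), Srsf6 (-0.53 ± 0.14) and Hnrnpab (-0.48 ± 0.15). For TE, 7 members were higher in LF vs MF (2.74%) and 1, Srsf4, was lower (4.03%, and 6.76% either way). In HF vs LF 9 were lower (8.57%) and 0 higher (8.65%, and 17.2% either way). The 7 were Srsf2 (1.09 ± 0.13), Hnrnpa0 (0.73 ± 0.13), Srsf3 (0.65 ± 0.13), Hnrnpd (0.64 ± 0.12), Srsf6 (0.62 ± 0.13), Hnrnpul1 (0.49 ± 0.12) and Srsf1 (0.45 ± 0.13), Srsf4 was at -0.44 ± 0.13, and the 9 were the 7 with Hnrnpab and Hnrnpl, led by Srsf2 (-1.54 ± 0.13). In HF vs MF 0 members were called in either measure (2.35% higher and 3.33% lower in polysome mRNA, 1.21% and 1.78% for TE).

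Without LF polysome replicate 1, in turn, more members were called in each of these LF comparisons than without replicate 2. The share of all genes called was not taken for that fit, so it does not say whether the members stood out. The number of calls at LF thus depended on which of the 2 LF polysome libraries was kept. HF vs MF does not contrast these libraries, but they enter the estimate of the spread that its test uses. It gave no call of a member in any of these fits. Its smallest p belonged in polysome mRNA to Srsf2 (-0.35 ± 0.20), Hnrnpf (0.31 ± 0.18) and Hnrnph2 (0.34 ± 0.21), and for TE to Srsf2, Hnrnph2 (0.34 ± 0.21) and Srsf4 (-0.39 ± 0.25).

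The isoform-weighted length of each gene gave a second, separate view of the same libraries. It is the length of a gene's transcripts averaged by their estimated abundance, so it moves when transcripts of other lengths take a different share. Of the 29 members whose length varied, 10 were longer in polysome than in total mRNA and 7 were shorter (limma on log2 length, adjusted p under 0.05; 26% and 16.5% of 9678 genes, 42.5% either way). Srsf7, Tra2a, Hnrnpa0 and Hnrnpul2 were listed with 1 transcript and could not vary. The 10 longer were Srsf1, Hnrnpl, Hnrnpu, Hnrnpa2b1, Hnrnpd, Srsf10, Hnrnph3, Hnrnpf, Srsf11 and Hnrnpdl, and the 7 shorter were Srsf2, Srsf6, Hnrnpm, Hnrnph1, Srsf3, Srsf5 and Srsf9. When 1 library was left out in turn, Hnrnpm lost its call in 9 of 12 fits, Srsf11 in 6 and Srsf9 in 5.

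Srsf5, which has 3 retained-intron transcripts, was shorter in polysomes. Its listed length in total mRNA was 1646 and 1615 nt at LF, 1646 and 1631 nt at MF, and 1694 and 1643 nt at HF. In polysomes it was 1518 and 1552 nt at LF, 1436 and 1432 nt at MF, and 1393 and 1447 nt at HF. All 6 total values exceeded the longest coding transcript of Srsf5 in GENCODE M21, 1568 nt, and no polysome value did. The transcripts of Srsf5 that are longer than this are the 3 with a retained intron, of 2720 to 3482 nt, all of which hold the intron 5 shown above. The MF and HF polysome values, 1393 to 1447 nt, also lay below its shortest coding transcript, 1489 nt. Its decay and processed transcripts have 489 to 886 nt, so the length does not say which of its transcripts differed. The log2 change of length was -0.17 ± 0.01 (adjusted p = 0.0001017).

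Hnrnpu showed the opposite direction. It has 1 coding transcript, of 7640 nt, and 4 others of 673 to 923 nt. The listed length was between 6494 and 7075 nt in total mRNA and between 7546 and 7640 nt in polysomes (0.18 ± 0.02, adjusted p = 0.0006407). With these transcript lengths the coding transcript made up between 82.9% and 91.9% of Hnrnpu in the total libraries and at least 98.6% in the polysome libraries. The CPM of the gene as a whole was not called different between the fractions.

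Hnrnpl, which binds CA repeats, went from 1357 to 1459 nt in total mRNA to 1889 to 1903 nt in polysomes (0.43 ± 0.02, adjusted p = 7.029e-06). Its coding transcripts have 502, 1898, 2142, 2180 and 2679 nt, its decay transcript 1850 nt, and its retained-intron transcripts 504 to 1087 nt in 5 cases and 2275 and 2426 nt in the others, so the length does not say which of them differed. The 6 polysome values lay close together and did not overlap with total mRNA. Srsf1 went from 2444 to 2600 nt in total mRNA to 3113 to 3556 nt in polysomes (0.45 ± 0.03, adjusted p = 6.311e-05). Its decay and retained-intron transcripts have 401 to 896 nt, and its coding transcripts run from 1209 to 5362 nt. For Srsf1 a shift among the coding transcripts and a loss of the short ones cannot be told apart from the length alone.

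Srsf6 and Srsf2 were shorter in polysomes. Srsf6 had 2841 to 2987 nt in total mRNA and 2288 to 2709 nt in polysomes (-0.26 ± 0.04, adjusted p = 0.002423). Its coding transcripts have 515 and 3527 nt, its retained-intron transcript 2897 nt and its decay transcript, which holds the exon shown above, 1666 nt, so the length does not say which of them differed. Srsf2 had 1827 to 1868 nt in total mRNA and 1432 to 1651 nt in polysomes (-0.27 ± 0.02, adjusted p = 5.068e-05), and within the polysome libraries it was longest at LF, at 1651 and 1593 nt, against 1432 to 1531 nt at MF and HF.

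Srsf3 differed between doses within the polysome libraries. Its length was 1643 and 1488 nt at LF, 1931 and 1983 nt at MF, and 2043 and 2054 nt at HF, against 2061 to 2108 nt in total mRNA. Both LF polysome libraries lay below all others, including the LF replicate that did not stand apart. The difference between doses in length was not tested. The coding and decay transcripts of Srsf3 have nearly equal lengths, 2618 and 2594 nt, so the length cannot separate them. All listed lengths of Srsf3 lay below both. Its retained-intron transcripts have 893, 2110 and 4010 nt, and the length does not say which transcripts differed. The listed transcript lengths of the authors' annotation were not identical to GENCODE M21 for every gene. For Hnrnpa2b1, Tra2a, Hnrnpul1 and Hnrnpul2 the listed length exceeded every coding transcript of M21 in all 6 total libraries. That of Srsf5 did so as well. Srsf5 also has longer transcripts with a retained intron, and whether these or the annotation account for its length was not tested.

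**Figure D4:**
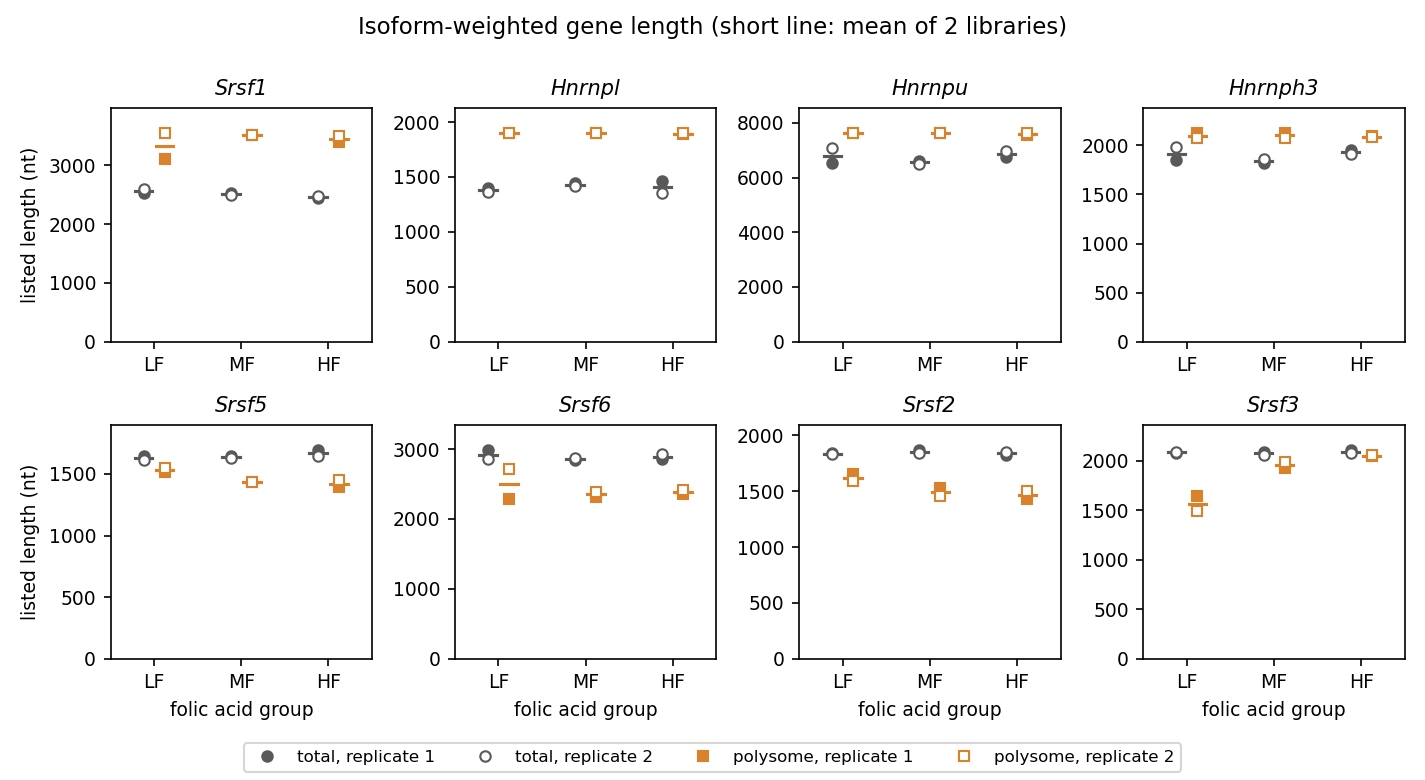
Isoform-weighted length in nt of 8 genes in total (circles) and polysome (squares) mRNA at LF, MF and HF; filled symbols are replicate 1, open symbols replicate 2 and short lines their mean. Srsf1, Hnrnpl, Hnrnpu and Hnrnph3 are longer in polysomes in all libraries, Srsf5, Srsf6, Srsf2 and Srsf3 are shorter, and Srsf3 is shortest in the LF polysome libraries.

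Genes that act with the SR and hnRNP proteins were described by the same test of polysome over total mRNA, in which 32.7% of all genes were higher, 38.4% lower and 71% either way, with a median of -0.0865. Of 35 SR-related proteins tested, nuclear proteins with arginine-serine repeats outside the Srsf family, 2 were higher and 28 lower, with a median log2 change of -1.155. The largest falls were those of Pnisr (-2.77 ± 0.20), Srrm2 (-2.70 ± 0.12), a scaffold of nuclear speckles, and Nktr (-2.68 ± 0.10). The 2 that rose were U2af1 (1.33 ± 0.06), which recognises the AG of the 3′ splice site, and Rnps1 (0.62 ± 0.07). Among the Srsf and Hnrnp members the lowest value was that of Srsf11, -1.10.

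Of 9 kinases that phosphorylate SR proteins, 5 were lower and 1 was higher (median -0.573), beside 38.4% and 32.7% of all genes. The largest falls were in Prpf4b (-2.17 ± 0.18), Clk1 (-1.31 ± 0.15), a nuclear kinase whose own mRNA retains introns, and Dyrk1b (-1.07 ± 0.21), and Clk3 (0.76 ± 0.08) was higher. Of 54 other splicing regulators, 10 were higher and 29 lower (median -0.422), with Mbnl3 (-2.47 ± 0.29), Matr3 (-2.39 ± 0.21) and Celf5 (-2.33 ± 0.24) the lowest and Pcbp1 (0.90 ± 0.06), Elavl1 (0.84 ± 0.07) and Ybx3 (0.80 ± 0.10) the highest. Of 64 core spliceosome genes, 26 were higher and 17 lower (median 0.144), beside the same 32.7% and 38.4% of all genes, with Sf3b6 (1.26 ± 0.10), Prpf38a (1.2 ± 0.10) and Isy1 (1.06 ± 0.08) the highest and Prpf39 (-2.82 ± 0.17) and U2surp (-2.16 ± 0.12) the lowest.

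Of 15 genes of nonsense-mediated decay and the exon junction complex, 6 were higher and 7 lower (median -0.213), near the 32.7% and 38.4% of all genes. The exon junction genes Magoh (1.50 ± 0.10), Magohb (1.42 ± 0.14) and Eif4a3 (1.22 ± 0.07) were the highest, and the decay factors Smg1 (-2.37 ± 0.12), Upf2 (-1.91 ± 0.16) and Upf3b (-1.74 ± 0.15) the lowest. Of 14 genes of SR protein import and mRNA export, 7 were higher and 5 lower (median 0.333), with Thoc5 (1.01 ± 0.07), Ddx39 (0.82 ± 0.08) and Nxt1 (0.61 ± 0.08) the highest and Thoc2 (-3.15 ± 0.22), Tnpo1 (-0.91 ± 0.15) and Thoc1 (-0.46 ± 0.15) the lowest. In the dose comparisons, 1 gene of these lists was called with all libraries, the spliceosome subunit Sf3b5, lower for TE in LF vs MF (-2.05 ± 0.30, adjusted p = 0.0334).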

How the data were processed

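Total and polysome mRNA of 12 libraries were analysed from the deposited gene tables. Per the labels, the authors assigned reads to genes of mm10 with RSEM 1.3.0 and Bowtie2 2.2.9, and the deposited expected counts are estimates that need not be whole. The authors' RSEM run also gave TPM, FPKM and 2 other columns, length and effective length in nt. The kit preserved strand, but the strand setting and annotation release are not given in the sources used here. Symbols and transcripts came from GENCODE M21, which matched 42462 of 43432 identifiers.

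Expected counts were rounded and tested with edgeR 4.0.16 in R 4.3.3 (TMM, filterByExpr, robust quasi-likelihood F test, Benjamini-Hochberg adjustment over all genes tested). A call needed an adjusted p below 0.05 with a fold over 1.2, as in the study, which used DESeq2 and Xtail. Alternatives were other scalings, tools, filters, a replicate block, fits of only the groups compared and leaving out each library. Total mRNA was tested in 6 libraries (13912 genes, 3 residual degrees of freedom), polysome mRNA in 6 (13433 genes, 3) and TE and polysome over total in all 12 (14421 genes, 6). SE is the log2 change over the root of F. Length was tested with limma 3.58.1. Scripts were tested on simulated data with 200 changed genes.

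The members and lists were chosen with earlier results of these data known. All members were named in polysome over total mRNA, with values per library for the 6 largest changes in each direction. Elsewhere up to 8 called members per direction were named, or, where none was called, the 3 of smallest p. Other genes shown per library, those with sequences and those of the length section were chosen after their values were seen. Reads carried no molecular identifiers, so sampling noise computed from counts covers counting error alone. Replicate pairs differed by more than sampling noise (chi-square per degree of freedom 2.72 to 132).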

Additional observations from a re-analysis of the deposited data

Results flagged for a closer look

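Srsf2 was the only member whose change of polysome over total mRNA differed between doses by the interaction term of the edgeR fit. The log2 difference was -1.38 in HF vs LF, with an adjusted p of 0.04659. Both LF polysome libraries lay above total mRNA (log2 ratios 0.616 and 0.27), and both HF libraries lay below it (-0.845 and -1.011). Groups of 2 libraries are too small for a test of single outlying libraries.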

How the results depend on the processing

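In the fits with all libraries the counts at LF were the least stable. Shares of all genes were not taken for the alternatives that follow. Members called in polysome LF vs MF (0) were 3 with DESeq2 and 4 without the low-count filter, and in polysome HF vs LF (0) they were 3, 2 and, with the replicate block, 1. For TE, LF vs MF (0) gave 6 with DESeq2 and 2 without the filter. TE HF vs LF (1) gave 5 with DESeq2, 2 with limma voom, without the filter or at a CPM of at least 5 in 2 libraries, and 0 with library totals alone, the replicate block or only the groups compared. Polysome over total at LF gave 7 higher (14) with only the groups compared, and lower (5) 3 with RLE factors, no filter or the replicate block, 8 with library totals and 1 with only the groups compared, and at MF it gave 9 higher (5) with only the groups compared.

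Leaving out 1 library gave 0 to 23 members in polysome LF vs MF, 0 to 19 in HF vs LF, 0 to 22 for TE in LF vs MF and 0 to 20 in HF vs LF, with the highest counts in each case without LF polysome replicate 1. In total mRNA, leaving out 1 library changed these counts little. Polysome over total then ranged from 8 to 19 higher and 3 to 8 lower at LF, 5 to 9 higher at MF and 7 to 12 lower at HF, and 9 to 15 higher over the 3 doses. Without both LF groups, polysome over total gave 8 members higher and 12 lower, against 12 and 12 with all libraries. With the trend on gene length removed, Srsf1 went from -0.36 to 0.023 in polysome over total. The sign changed for 4 members, 1 of them called. The genes with the longest transcripts moved most, Hnrnpu from 0.22 to 1.32 and Hnrnpul2 from -0.06 to 0.85. The median of the members was 0.0922, against 0.1052 before. Causes were not tested.

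Whether the replicate numbers pair the libraries was not settled. Correlations of deviations lay between -0.106 and 0.094 over 15 pairs of groups, which gave no sign of pairing but cannot exclude it. The replicate block is therefore given only as a check. A crossed pairing of the polysome MF and HF numbers, added after the data were seen, called 9 members and 3211 genes in HF vs MF, against 0 and 601 with the numbers as given, with 1 residual degree of freedom. With 2 libraries per group, small changes were not detectable, and values of low genes such as Srsf12 are the least precise.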
